A study of Mus musculus with 284 samples.

Results

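Within each of 4 mice, single skin tumour cells were ranked by the transcripts of 10 glycolytic enzymes, and the top 25% were compared with the bottom 25%. The 70 glycolysis-high and 70 glycolysis-low cells came from 284 cells in all, with 17, 22, 18 and 13 cells per class in the mice WT1, WT2, KO1 and KO3; the 144 cells between them are called middle cells. The score was the mean z-score of Gpi1, Pfkl, Aldoa, Tpi1, Gapdh, Pgk1, Pgam1, Eno1, Pkm and Ldha within a mouse, on the log2(CPM + 1) scale, with the linear dependence on depth (log10 total) and on how many genes a cell had detected taken out first. CPM values give a transcript's share of its library, scaled to 1 fixed total. The classes are therefore defined by measured values of these 10 genes, whose levels describe the choice and are not a finding.

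The cells are tumour propagating cells of skin tumours induced in C57BL/6 mice by 1 dose of DMBA, a mutagen, at 8 weeks of age and more than 20 weeks of TPA, a tumour promoter. WT1 and WT2 were wild type and KO1 and KO3 were labelled Sirt6-/-. The sort took live CD34+ CD49f+ YFP+ cells into 96-well plates, the YFP coming from a ROSA26-LSL-eYFP reporter switched on by a Keratin14-Cre, so that both genotypes share the reporter and the Cre and only cells of the keratinocyte lineage are covered. Libraries followed a modified Smart-seq2 protocol. Each genotype has 2 mice, and the mouse, not the cell, is the replicate. Sirt6 was counted at 13.6, 17.5, 24.4 and 14.0 CPM in the high cells of WT1, WT2, KO1 and KO3, and at 18.8, 36.2, 20.4 and 10.6 CPM in the low cells. The transcript was thus not lower in KO1 than in WT1 in either class. In the low cells KO1 and KO3 lay below WT2, and KO3 lay below WT1 as well. In the high cells KO1 lay above both wild type mice and KO3 between them. Which part of the gene was deleted is not given in the labels, so the label is quoted as given for both mice.

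Glycolysis splits glucose into pyruvate through a chain of cytosolic enzymes, and lactate dehydrogenase (Ldha) turns the pyruvate into lactate, which leaves the cell through monocarboxylate transporters. Hypoxia inducible factors (HIF) are known to switch on most of these genes when oxygen is low, and proliferating tumour cells often run the pathway in air as well. In skin, the same enzymes are used by basal cells, which divide, and by suprabasal cells, which differentiate.

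All 140 cells of both classes held Krt14 and Krt5, the basal keratins, and Trp63, the lineage factor of stratified epithelia, was counted in 68 of 70 cells of each class. Itga6, which encodes CD49f, was counted in 62 high and 67 low cells, and Cd34 in 51 of each. At least 2 markers of one other cell type were counted in few cells: fibroblast markers in 3 high and 4 low cells, endothelial in 0 and 1, melanocyte in 0 and 0, immune in 2 and 2, and muscle or fat in 2 and 0. The 9 fibroblast markers summed to 201 to 226 CPM in high cells and 66.6 to 351 in low cells over the mice. Total counts per cell ran from 523999 to 1684464, and the detected genes from 3235 to 8470. Of the median high and low cell, the low cell had more total counts in 4 of 4 mice (938448 against 1148958 in WT1, the widest gap) although the trend on depth had been removed, while detected genes were lower in the high cells of WT1 (6330 against 7432) and KO1 (6437 against 6764) and higher in WT2 and KO3. WT1 and KO3 cells lay on 1 plate each and KO1 and WT2 cells mostly on 1, so that genotype and plate cannot be told apart between mice; high and low cells of a mouse shared plates.

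Promoters are shown for 2 rule genes and the lactate exporter Slc16a3, which carry the core of the HIF response element, ACGTG. That of Tpi1, the rule gene that differed most when it had no part in the choice, does not carry it. Of windows not shown, those of Pgam1 and of the hypoxia genes Fam162a and Egln3 held the motif, and that of Pdk1 did not. Whether HIF acts on these genes here was not tested. Each line gives the 250 bases before the start site, 5′ to 3′ on the gene's strand, from RefSeq on GRCm38.p6, with ACGTG and its reverse complement CACGT in capitals; where they overlap they form CACGTG, the E-box that MYC and other factors bind as well. The windows are chr7:46845554-46845803 (plus strand) for Ldha, chrX:106186850-106187099 (plus) for Pgk1, chr11:120948817-120949066 (plus) for Slc16a3 and chr6:124814159-124814408 (minus) for Tpi1.
Ldha: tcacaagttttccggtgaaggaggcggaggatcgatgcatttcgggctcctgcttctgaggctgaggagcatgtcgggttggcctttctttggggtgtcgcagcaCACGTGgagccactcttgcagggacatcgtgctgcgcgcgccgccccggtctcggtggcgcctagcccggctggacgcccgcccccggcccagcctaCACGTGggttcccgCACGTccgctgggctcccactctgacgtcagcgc
Pgk1: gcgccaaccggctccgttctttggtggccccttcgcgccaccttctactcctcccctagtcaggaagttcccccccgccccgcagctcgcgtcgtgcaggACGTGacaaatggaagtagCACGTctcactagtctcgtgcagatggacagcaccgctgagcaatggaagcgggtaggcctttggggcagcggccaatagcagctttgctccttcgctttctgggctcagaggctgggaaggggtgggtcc
Slc16a3: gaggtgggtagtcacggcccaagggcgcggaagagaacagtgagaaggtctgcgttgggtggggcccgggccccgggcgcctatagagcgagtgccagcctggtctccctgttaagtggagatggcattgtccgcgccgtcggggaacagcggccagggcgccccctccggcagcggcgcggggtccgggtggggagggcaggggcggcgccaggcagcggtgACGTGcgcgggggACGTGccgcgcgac
Tpi1: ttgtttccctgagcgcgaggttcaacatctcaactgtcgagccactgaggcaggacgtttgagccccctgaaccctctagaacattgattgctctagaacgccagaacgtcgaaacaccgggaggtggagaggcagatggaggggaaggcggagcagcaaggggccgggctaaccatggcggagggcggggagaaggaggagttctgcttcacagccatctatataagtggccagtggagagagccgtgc
Ldha held the motif in 3 places, 2 of them as CACGTG, and Pgk1 and Slc16a3 in 2 places each. All 10 rule genes matched the promoter table, and 3 of the 10 (Pgk1, Pgam1 and Ldha) held the motif in the window of that table nearest the GENCODE gene start. The windows of Ldha and Slc16a3 lie inside the annotated gene, and that of Tpi1 lies partly inside it. Counting every window of the rule genes, 6 of 16 held the motif. Over 32851 windows of 250 bases, 16.6% held it, 1.93% in at least 2 places, and 6.02% held CACGTG. A match is a string of letters and was not tested for binding.

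The score was continuous and had no gap at either cut. In WT1 it ran from -2.83 to 1.35, in WT2 from -1.59 to 1.21, in KO1 from -2.10 to 1.27 and in KO3 from -1.43 to 2.17. The lowest high cell and the highest middle cell were 0.384 and 0.318 in WT1, 0.426 and 0.390 in WT2, 0.438 and 0.429 in KO1, and 0.334 and 0.313 in KO3. Within 0.1 of a cut lay 27 cells at the upper and 41 at the lower edge, so the classes are 2 ends of a range and not cell types. The ends differed in shape: WT1 had a tail of very low cells (skewness -1.34) and KO3 a tail of high cells (0.846).

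**Figure D1:**
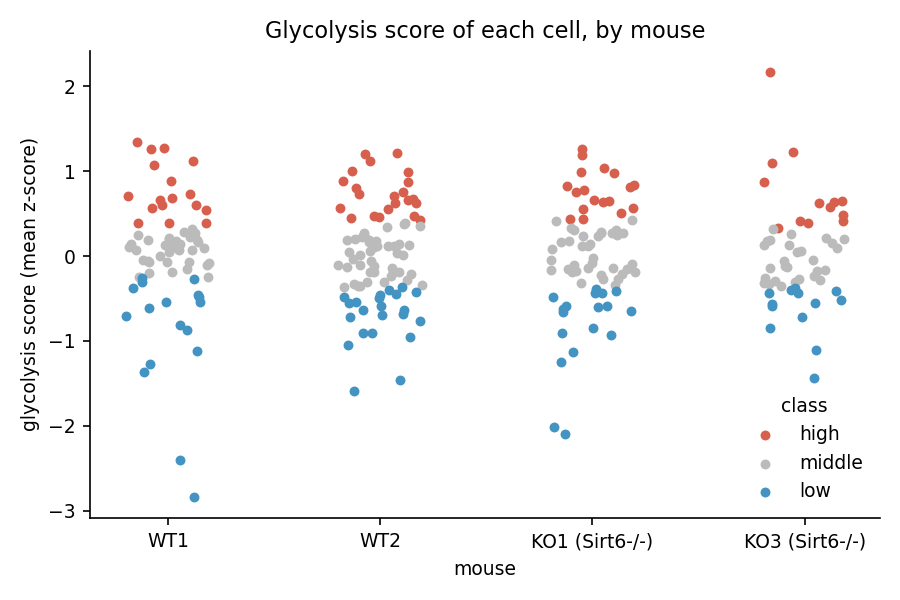
Glycolysis score (mean z-score, vertical axis) of each of the 284 cells by mouse, 1 point a cell, with the high cells in red, the middle cells in grey and the low cells in blue. The classes meet without a gap in every mouse, from -2.83 to 1.35 in WT1 and from -1.43 to 2.17 in KO3.

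The 10 enzymes went together across cells, most closely in WT1. The mean Pearson correlation over their 45 pairs, across cells of 1 mouse after trend removal, was 0.464 in WT1 (69 cells), 0.259 in WT2 (88), 0.362 in KO1 (73) and 0.275 in KO3 (54). It was above 0 for 45, 41, 43 and 38 of the 45 pairs. Cells of a mouse share a plate and a depth range, so these values describe the cells and carry no p. The pairs of highest mean over the mice were Pgam1 with Ldha (0.539), Aldoa with Ldha (0.514) and Tpi1 with Gapdh (0.492), and Ldha followed the other 9 genes at 0.597, 0.717, 0.831 and 0.410 in WT1, WT2, KO1 and KO3. Gpi1, the second enzyme of the pathway, followed them at 0.665 in WT1 but at 0.0939 in WT2.

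Among the rule genes, Ldha had the most counts. Summed over the cells of a class, its level was 7215, 5391, 7600 and 9555 CPM in the high cells of WT1, WT2, KO1 and KO3, and 4899, 2905, 3019 and 6312 CPM in the low cells. By choice, all 10 genes lay higher in the high cells of 4 of 4 mice, from 1.51-fold (Gapdh) to 2.36-fold (Pfkl, the liver-type phosphofructokinase of the committed step). The 10 genes together made up 1.65% to 2.43% of the counts of the median high cell and 0.872% to 1.79% of the median low cell. Of the 10, 9 were counted in at least 67 of the 70 low cells, and Pfkl in 53.

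To read each enzyme without its own part in the choice, the cells were chosen 10 times by the other 9 genes and the gene left out was read. The left out gene lay higher in the high cells of 4 of 4 mice for all 10. Tpi1, the isomerase that brings both products of the sugar split into 1 line, led: 1442, 1104, 1260 and 1497 CPM in the high cells of WT1, WT2, KO1 and KO3 against 883.3, 582.3, 545.0 and 848.2 CPM in the low cells (1.99-fold; log2 difference 0.99, SE 0.12). Every high value lay above every low value, a description for which no share of all genes is given. Pfkl (0.88, SE 0.12) and Pgk1, the first ATP-yielding enzyme (0.88, SE 0.13), came next, then Pgam1 (0.79, SE 0.11), Aldoa (0.69, SE 0.12), Gpi1 (0.69, SE 0.18) and Ldha (0.68, SE 0.19). Eno1 (0.61, SE 0.10), Pkm, the last kinase of the pathway (0.55, SE 0.11), and Gapdh (0.48, SE 0.12) had the smallest differences. By edgeR's quasi-likelihood test with the mouse as a block, 0 of the 10 passed an adjusted p of 0.05 over all genes of their fit (0.729 for Pfkl to 0.992 for Ldha). All 10 had an unadjusted edgeR p under 0.05, as did 2.06% to 3.26% of all genes in that direction in these fits, and DESeq2 called all 10, with 1.58% to 2.99% of all genes called in either direction. Eno1 shares nearly all of its sequence with Eno1b, which lay at 1149, 910, 1090 and 1511 CPM in the high and 754, 417, 655 and 959 CPM in the low cells, so the split of reads between them is uncertain, and the other enzymes have processed copies that can take reads too.

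**Figure D2:**
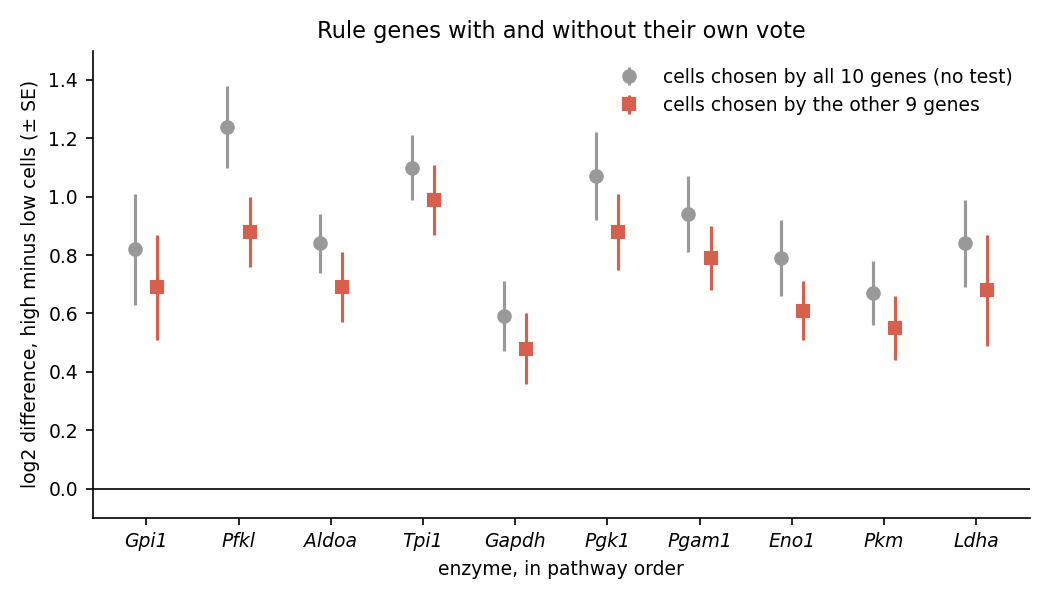
Log2 difference between high and low cells (vertical axis, ± SE, 4 mice) for the 10 rule genes in pathway order. Grey points are from cells chosen by all 10 genes, a description, and red squares from cells chosen by the other 9; the red values run from 0.48 (Gapdh) to 0.99 (Tpi1).

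For the other genes, counts of the cells of a class were summed per mouse, and high and low sums of a mouse were compared as a pair. Of 12579 genes that passed the filter on low counts, edgeR called 0 (0%) at an adjusted p under 0.05, the lowest adjusted p being 0.892. At an unadjusted edgeR p under 0.05 there were 684 genes, 357 higher (2.84%) and 327 lower (2.60%) in high cells. DESeq2 called 248 genes, 100 higher (0.795%) and 148 lower (1.18%), and limma on mean log2 values per cell called 0. All 4 mice had the higher level in the high cells for 1044 genes (8.30%) and in the low cells for 947 (7.53%). In what follows, differences are log2 differences between the sums, high minus low, as fitted by edgeR with its library scaling and the mouse as block. Because edgeR's test gives no SE, the SE here and above is the absolute difference over the square root of the test's F statistic. None of the differences passed edgeR's adjusted threshold, and the median over all tested genes was 0.0066. Differences within 1 mouse are log2 ratios of summed CPM with 1 CPM added to both classes. Where high and low values are said not to overlap, mice are compared without pairing. The share of all genes without overlap is not given. Gene lists are described by these counts beside those shares of all genes. A DESeq2 adjusted p is given for some genes only, and genes without it were not all called by DESeq2. The edgeR and DESeq2 p-values test the paired difference over 4 mice, against an estimate of variability that borrows from all genes.

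Downstream of pyruvate, Slc16a3, Pdk1 and Bsg lay higher in the high cells of all 4 mice, while the list they belong to did not go one way. Slc16a3 (chr11:120948480-120960868, plus strand, GRCm38) encodes the lactate exporter MCT4. It was counted at 203, 34.9, 227 and 341 CPM in the high cells of WT1, WT2, KO1 and KO3 and at 106, 11.5, 80.6 and 97.9 CPM in the low cells (log2 difference 1.46, SE 0.19; unadjusted edgeR p = 0.000281; DESeq2 adjusted p = 8.18e-07). WT2 was far below the other mice in both classes, and the median WT2 cell had 0 CPM in either class. Pdk1 (chr2:71873224-71903858, plus strand), the kinase that shuts pyruvate dehydrogenase, was at 132, 150, 67.0 and 109 CPM against 59.1, 52.3, 50.7 and 66.0 CPM (0.95, SE 0.23, DESeq2 adjusted p = 0.0471). Its lowest high value (67.0 CPM in KO1) was close to its highest low value (66.0 CPM in KO3). Bsg, the chaperone that carries MCT proteins to the membrane, was at 0.37 (SE 0.12; DESeq2 adjusted p = 0.187), higher in 4 of 4 mice. Of the 19 genes of lactate and pyruvate handling that passed the filter, 12 lay higher and 7 lower, 3 of them higher in all mice, and the list's median was 0.07.

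Glucose entry and the other isozymes did not go one way with the score. The glucose transporter Slc2a1 was at 490, 424 and 361 CPM in the high cells of WT1, KO1 and KO3 against 232, 205 and 244 CPM in the low cells, but at 347 against 555 CPM in WT2 (0.52, SE 0.32). Hexokinase 2, the first enzyme of the pathway (Hk2), lay higher in WT1 (84.0 against 46.1 CPM) and KO1 (57.6 against 27.7) and lower in WT2 (95.2 against 123) and KO3 (95.9 against 136). Hk1 was at 0.13 (SE 0.20) and the platelet phosphofructokinase Pfkp at 0.22 (SE 0.18). Ldhb, the dehydrogenase subunit that favours lactate as a substrate, was lower in the high cells of 4 of 4 mice (50.9 against 52.4, 23.1 against 34.4, 55.3 against 90.8 and 11.3 against 29.6 CPM; -0.68, SE 0.29), but at 0.09 when the score was pooled over mice. Pfkfb3, whose product activates phosphofructokinase, was counted in 10 high cells and 1 low cell, and the isozyme Aldoc in 8 and 2. Pooled over mice, Pfkfb3 was at 8.29 against 0.698 CPM and Aldoc at 11.7 against 1.61 CPM. Of the 17 such genes past the filter, 8 lay higher and 9 lower, with a median of -0.34 in the fit and of -0.02, 0.17, 0.27 and -0.52 within WT1, WT2, KO1 and KO3; without KO3 the median in the fit was 0.06. The share of cells with a count was 98.1% of high and 94.0% of low cells for Slc2a1 and 88.5% and 82.1% for Hk2, as means over mice (exact sign-flip permutation test over the mice, two-sided, p = 0.500 for both; adjusted over 11 genes p = 0.786). For Slc2a1 the shares were equal in KO1 and in KO3, so that no lower p was possible.

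Targets of HIF outside the pathway leaned toward the high cells. Of 26 genes past the filter 20 lay higher and 6 lower, with a median of 0.46, and 8 lay higher in all 4 mice, beside 8.30% of all genes. Fam162a (chr16:36043761-36071594, minus strand), a mitochondrial HIF target, was at 458, 585, 482 and 506 CPM in the high and 188, 260, 343 and 285 CPM in the low cells (0.94, SE 0.16; DESeq2 adjusted p = 0.000192). Its high and low values did not overlap over the mice, a description for which no share of all genes is given. Egln3, an oxygen-sensing prolyl hydroxylase that HIF itself induces, was at 18.4, 14.1, 28.4 and 79.9 CPM against 3.92, 6.59, 7.11 and 3.13 CPM (2.43, SE 0.71), counted in 21 high and 11 low cells. Car9, the HIF-induced carbonic anhydrase, was counted in 10 high and 2 low cells, at 12.2, 3.70, 1.23 and 28.8 CPM against 1.86, 0, 0.36 and 0 CPM. Vegfa (1.79, SE 0.98), Egln1 (2.01, SE 1.21), the mitophagy receptors Bnip3 (2.39, SE 1.64) and Bnip3l (0.35, SE 0.18), and Hif1a itself (0.50, SE 0.16; 3 of 4 mice) were on the same side. Higd1a, a mitochondrial HIF target, was at 1.14 (SE 0.40) but equal in KO1 (60.0 CPM in both classes), and Car12 was at 0.18 (SE 0.18). DESeq2 called 3 of the 26 genes, Fam162a, Egln3 and Car9, all higher, beside 0.795% of all genes. Its adjusted p was 0.114 for Hif1a, 0.171 for Higd1a and 0.611 for Vegfa.

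**Figure D3:**
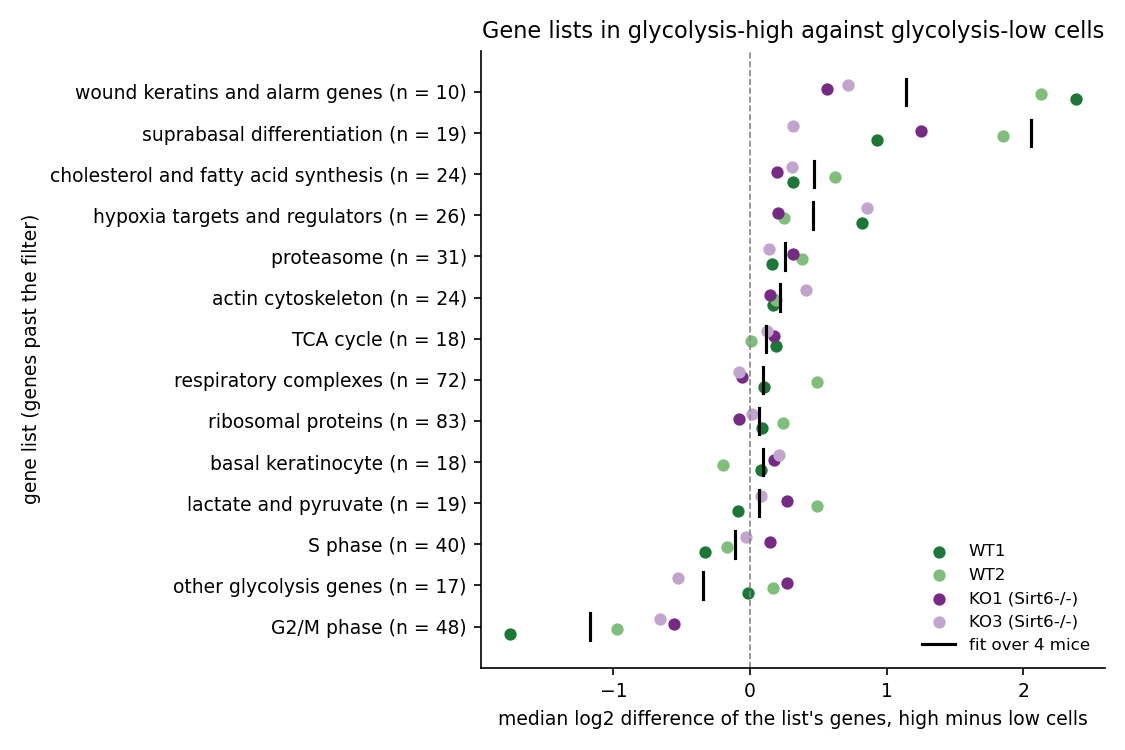
Median log2 difference, high minus low cells, of the genes of 14 lists (horizontal axis). Each list has 1 point a mouse (1 CPM added to both classes) and a black bar for the fit over 4 mice. The number of genes past the filter is n. Wound and suprabasal genes lie to the right (bars at 1.14 and 2.06) and G2/M genes to the left (-1.17), with the points of all 4 mice on the same side.

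Of the mitochondrial and biosynthetic lists, lipid synthesis had the highest median. Of 24 genes of cholesterol and fatty acid synthesis 20 lay higher and 4 lower (median 0.47), 8 of them in all mice. In the median cell the list's level was lower in the high cells of WT1 (2350 against 2794 CPM). It was higher in WT2, KO1 and KO3, narrowly in KO3 (3003 against 2932 CPM). The summed level was higher in 4 of 4 mice, but in 3 of 4 with cell cycle scores removed as well (2332 against 2862 CPM in WT1). Acss2, which activates acetate for fatty acid synthesis, had the list's largest difference (2.02, higher in 3 of 4 mice; unadjusted edgeR p = 0.316). Among the sterol genes, Cyp51 was at 209, 57.9, 144 and 209 CPM against 129, 32.3, 77.6 and 150 CPM (0.73, SE 0.14; DESeq2 adjusted p = 0.0114), and on the same side were the sterol sensor partner Insig1 (0.90, SE 0.22), Sqle (0.67, SE 0.25) and Msmo1 (0.65, SE 0.20). G6pdx, the entry enzyme of the pentose phosphate pathway, was at 319, 189, 317 and 313 CPM against 256, 69.5, 178 and 233 CPM (0.75, SE 0.22). Of the 7 genes of that pathway past the filter, 5 lay higher and 2 lower (median 0.16), 1 of them higher in all mice. H6pd had the list's largest difference (-3.17, lower in 3 of 4 mice, unadjusted edgeR p = 0.171). Of the TCA cycle genes 13 of 18 lay higher (median 0.11), among them citrate synthase Cs (0.37, SE 0.11), Mdh2 (0.29, SE 0.10) and Idh2 (0.47, SE 0.19), all 3 in 4 of 4 mice. The 72 nuclear genes of the respiratory complexes had a median of 0.09 and the 83 ribosomal protein genes of 0.06, and both fell below 0 without WT2 (-0.09 and -0.01). Proteasome subunits were higher in 30 of 31 cases, 13 in all mice, with a median of 0.26 (Psmb5 0.45, SE 0.15; Psmb7 0.44, SE 0.21), and actin cytoskeleton genes in 23 of 24, 12 in all mice, with a median of 0.22 (Tpm2 0.42, SE 0.13; Cfl1 0.27, SE 0.09).

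Keratinocyte differentiation genes were among the largest differences. Of 19 suprabasal genes past the filter 18 lay higher and 1 lower (median 2.06), 10 of them in all mice, beside 8.30% of all genes. Krt10 (chr11:99385254-99389364, minus strand), the keratin of the first suprabasal layer, was at 34.5, 647, 56.8 and 378 CPM in the high and 29.7, 82.9, 15.5 and 29.4 CPM in the low cells (2.22, SE 0.61; DESeq2 adjusted p = 0.00149). Its partner Krt1 was at 141, 1281, 95.5 and 523 CPM against 107, 29.7, 129 and 47.6 CPM (DESeq2 adjusted p = 0.418), lower in the high cells of KO1. The transcription factors of this programme were also on the high side: Ovol1 (1.33, SE 0.31) and Grhl3 (1.62, SE 0.40), each in 4 of 4 mice, as were Dsg1a (3.29, SE 0.85), a desmosomal cadherin, the protease inhibitor Spink5 (0.80, SE 0.17), Ivl (2.06, SE 0.67) and Notch3 (1.33, SE 0.43). DESeq2 called neither Ivl nor Notch3 (adjusted p = 0.0616 and 0.0965). Krt4 and Cnfn, the list's largest differences, were counted in 4 and 11 high cells and in 1 and 3 low cells. The list's other genes given here were named after their values were seen. Among genes of no list, named after their values were seen, were Aqp3, a glycerol and water channel of basal keratinocytes (1699, 1845, 1013 and 2330 CPM against 1186, 806, 529 and 1181 CPM; 0.91, SE 0.13), the sphingosine phosphatase Sgpp2 (1.75, SE 0.24), the protease Klk11 (1.65, SE 0.29), the lipid transporter Abca12 (1.98, SE 0.42), the epidermal transcription factor Zfp750 (0.90, SE 0.14), Sfn (0.46, SE 0.09) and the junction protein Jup (0.52, SE 0.11).

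These sums were carried by some of the cells. Krt10 was counted in 32 high and 28 low cells, and its mean share over mice was 45.6% of high and 41.6% of low cells, higher in the high cells of WT2 alone. The median high cell had 0, 5.39, 0 and 3.15 CPM of Krt10 and the median low cell 0, 0, 2.34 and 1.39 CPM. The list's median was 2.06 in the fit over 4 mice, and 0.93, 1.85, 1.25 and 0.31 within WT1, WT2, KO1 and KO3. The values within a mouse had 1 CPM added to both classes, which draws differences of genes near 0 CPM toward 0, so the measures differ. The fit's median was 0.78 with limma on mean log2 values per cell and 1.02 when cell cycle scores were also removed from the glycolysis score. It was 1.05 in cells thinned to 500000 counts and 1.26 without the mouse block, and stayed above 0 throughout. The list's summed level was higher in the high cells of 4 of 4 mice, but of 3 of 4 in thinned cells (5213 against 6758 CPM in KO3) and with the trends kept. In the median cell it was lower in the high cells of WT1 (1040 against 1489 CPM) and higher in WT2, KO1 and KO3. Basal genes stood beside the suprabasal genes. Krt14 was at 25572, 29176, 28483 and 29978 CPM in the high and 22387, 28294, 14825 and 26108 CPM in the low cells (0.34, SE 0.16), and the 18 genes of the basal list had a median of 0.09.

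Keratins of wounded and tumour epidermis lay higher as well. All 10 genes of that list that passed the filter had a positive difference (median 1.14), 6 of them in all mice. Krt6b (chr15:101676023-101680287, minus strand) was at 4465, 1101, 3659 and 5210 CPM in the high and 872, 144, 845 and 4296 CPM in the low cells (1.95, SE 0.45; DESeq2 adjusted p = 0.0209), Krt16 at 5310, 1972, 3139 and 5679 CPM against 983, 504, 1850 and 4991 CPM (1.34, SE 0.40) and Krt6a at 0.94 (SE 0.26). Krt17 lay at 0.75 (SE 0.40), with near-equal sums in KO3 (3799 against 3737 CPM). The cornified envelope genes Sprr1b (2.20, SE 0.87), Sprr1a, in 14 high and 4 low cells, and Sprr2h, in 16 and 3, were on the same side, the last in 3 of 4 mice. DESeq2 called 2 of the 10 genes, Krt6a and Krt6b, beside 0.795% of all genes as higher. It did not call Krt16, Krt17 or Sprr1b (adjusted p = 0.329, 0.269 and 0.170). In the median cell, however, Krt6b was lower in the high cells of WT1 (356 against 676 CPM) and higher in WT2 (188 against 70.7), KO1 (516 against 226) and KO3 (2009 against 746), and Krt6a and Krt16 were lower in the median high cell of WT1 too. In thinned cells the summed level of the list was higher in 2 of 4 mice and its median 0.69. Krt6a and Krt6b are near-identical, so their split is uncertain.

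**Figure D4:**
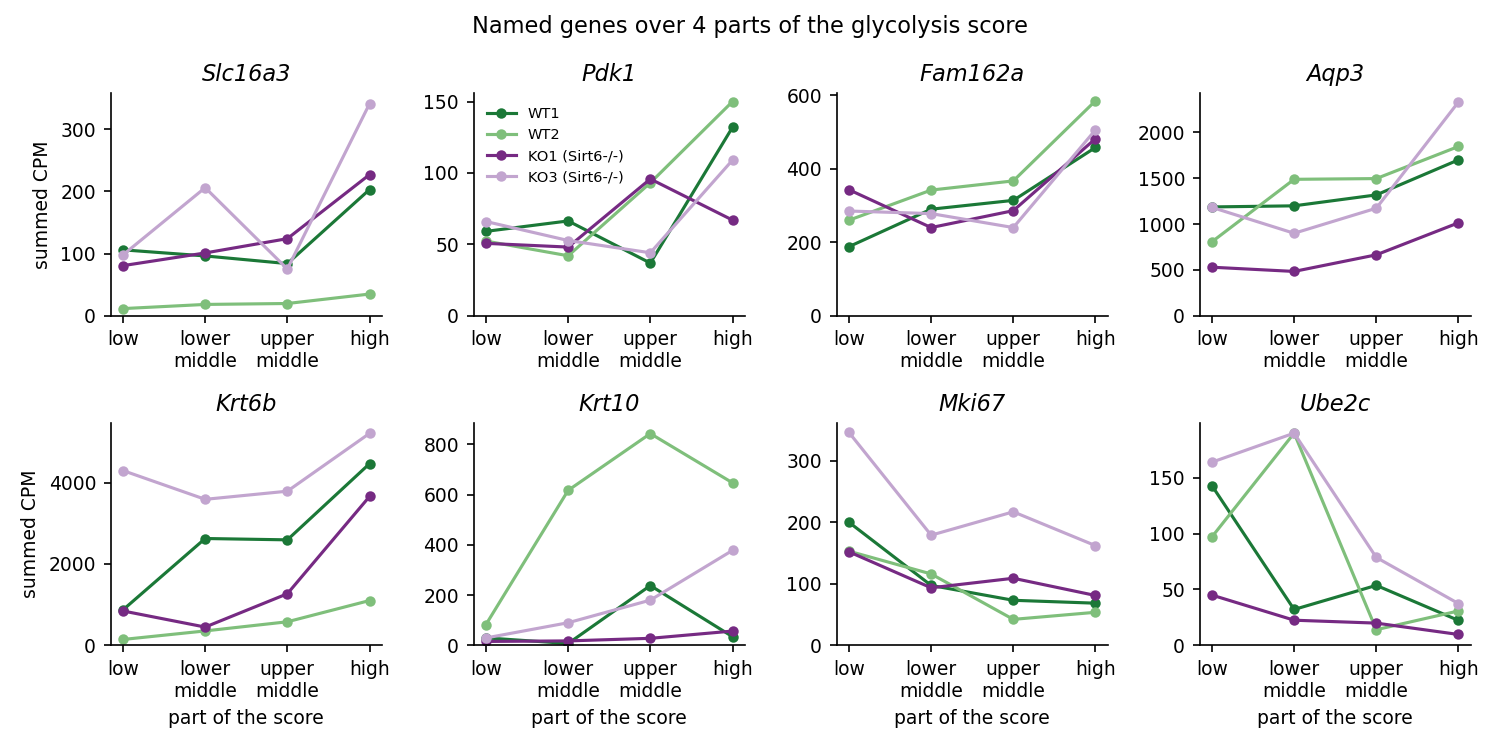
Summed CPM (vertical axes, from 0) of 8 genes over 4 parts of the score (low, lower middle, upper middle and high cells), 1 line a mouse. Slc16a3, Fam162a and Aqp3 are highest in the high cells of all 4 mice, and Mki67 in the low cells of all 4, while Krt10 peaks in the upper middle cells of WT1 and WT2.

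Genes of G2 and mitosis lay lower in the high cells. Of the 48 genes of the list 44 lay lower and 4 higher (median -1.17), 24 of them lower in all 4 mice, beside 7.53% of all genes, and 21 had an unadjusted edgeR p under 0.05, beside 2.60%. Their summed level was 2308, 2069, 2659 and 3920 CPM in the high cells of WT1, WT2, KO1 and KO3 and 6502, 3331, 3647 and 5922 CPM in the low cells. Mki67 (chr7:135689784-135716361, minus strand), the proliferation antigen Ki-67, was at 68.5, 53.7, 81.0 and 162 CPM against 200, 153, 152 and 346 CPM (-1.26, SE 0.17; unadjusted edgeR p = 0.000345; DESeq2 adjusted p = 8.18e-07). Ube2c (chr2:164769898-164778822, plus strand), the ubiquitin enzyme of mitotic exit, was at 22.3, 30.8, 9.73 and 37.4 CPM against 143, 97.1, 45.0 and 164 CPM (-2.17, SE 0.23). Topoisomerase 2 (Top2a, -1.44, SE 0.28), the checkpoint kinase Bub1b (-1.40, SE 0.22), cyclin B1 (Ccnb1, -1.20, SE 0.24) and its kinase Cdk1 (-1.15, SE 0.31), Aurkb (-1.55, SE 0.44), Plk1 (-1.95, SE 0.57) and Hmmr (-2.21, SE 0.67) were on the same side in 4 of 4 mice, as was Prc1 (-2.29, SE 0.38), named after its value was seen. Psrc1 (-1.76, SE 1.10) was equal in WT1 (16.4 CPM in both classes) and higher in the high cells of KO1. Kif11 and Cenpf, the list's largest differences, were near 0 in the high cells of 3 mice and close to equal in KO3 (Kif11 at 23.4 against 29.0 CPM). The list's other genes given here were also named after their values were seen.

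How many cells had a count differed from gene to gene. Mki67 was counted in 7, 9, 7 and 10 high cells and in 13, 9, 7 and 10 low cells of WT1, WT2, KO1 and KO3, a mean of 49.5% against 58.3% that differed in WT1 alone, and these shares were the same after each cell was thinned to 500000 counts. Aurkb was counted in 10 high and 31 low cells and Prc1 in 20 and 37. The median high cell had a count for 17, 12.5, 17.5 and 26 of the 48 genes and the median low cell for 35, 8, 14 and 37, so WT1 and KO3 differed one way and WT2 and KO1 the other. At least 24 of the 48 genes were counted in 4, 3, 6 and 8 high and 14, 7, 6 and 8 low cells, the same number in both classes of KO1 and of KO3.

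The G2/M difference depended on how the score was built. Where the trends on depth and detected genes were kept, 44 of 70 high and 41 of 70 low cells were the same. The list's median was then 0.44 in place of -1.17, with Top2a at 0.61, Ccnb1 at 0.86 and Aurkb at 1.23. Mki67 and Ube2c kept the sign of their summed level. The share of cells with an Mki67 count, however, was then higher in the high cells of 4 of 4 mice (mean 67.5% against 36.0%). Summed G2/M genes were then higher in the high cells of 3 of 4 mice and S phase genes in 4 of 4, and the median high cell had more detected genes in 4 of 4 mice (7115 against 5788 in WT1). With cell cycle scores removed as well as the trends, the list stayed on the low side (-0.75), as it did on the main plate of each mouse alone, in thinned cells (-1.03) and without WT1 (-0.88). S phase genes had a median of -0.11 with 15 of 40 higher: the helicase subunits Mcm6 (0.45, SE 0.13) and Mcm2 (0.38, SE 0.15) lay higher in 4 of 4 mice, and Lig1 (-0.46, SE 0.18) and Rrm1 (-0.33, SE 0.13) lower in 4 of 4. The part of detected genes in these differences was not tested beyond this.

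**Figure D5:**
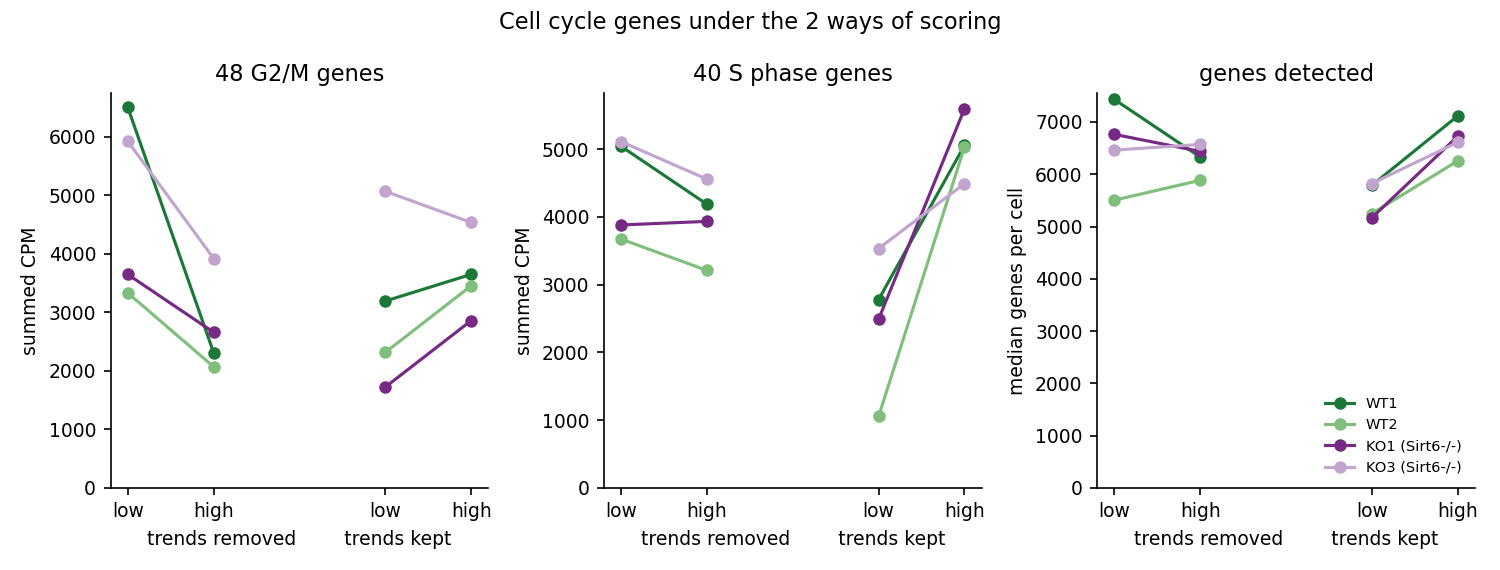
Summed CPM of 48 G2/M and 40 S phase genes, and median genes detected per cell (vertical axes, from 0), in low and high cells with the trends removed (left pairs) and kept (right pairs), 1 line a mouse. G2/M sums are lower in the high cells of all 4 mice on the left and higher in 3 of 4 on the right, where detected genes are higher in all 4.

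Stem cell genes split, with 7 of 13 higher and 6 lower (median 0.09, but -0.945 without KO1 and -0.18 without KO3). Sox9, a hair follicle stem cell factor, was lower in the high cells of 4 of 4 mice (134, 195, 57.5 and 20.3 CPM against 152, 315, 167 and 80.7 CPM; -1.10, SE 0.33; DESeq2 adjusted p = 0.0454) but was counted in 59 high and 55 low cells. Lgr6 and Foxc1 had the list's largest differences, in opposite directions. Lgr6, a follicle stem cell receptor, was lower (-5.38) and counted in 3 high and 8 low cells. Foxc1 was higher in the high cells of 4 of 4 mice (4.44, unadjusted edgeR p = 0.0740). Of the basal list, Krt15, a keratin of the follicle bulge and the basal layer, was at 1589, 898, 365 and 158 CPM against 2400, 1498, 799 and 1204 CPM (-1.32, SE 0.41). Cd34, the sorting marker, was at 406, 122, 264 and 213 CPM against 338, 129, 207 and 73.2 CPM (0.51, SE 0.28), and Lama3, a laminin chain of the basement membrane, at 256, 192, 108 and 372 CPM against 129, 130, 50.2 and 65.6 CPM (1.28, SE 0.34). Of 4 noncoding RNAs named after their values were seen, Xist was at 80.1, 297, 154 and 88.5 CPM against 140, 563, 427 and 171 CPM (-1.04, SE 0.15), Kcnq1ot1 at -0.83 (SE 0.17), Malat1 at -0.56 (SE 0.21; higher in WT1, 399 against 360 CPM) and Neat1 at -0.20 (SE 0.13; unadjusted edgeR p = 0.178). Both Xist and Kcnq1ot1 overlap antisense genes, and no strand setting is given in the sources used here. Eif4a2, a translation initiation factor (-0.76, SE 0.13), and the immediate early factor Egr1 (-0.57, SE 0.12) lay lower in 4 of 4 mice as well. The share of counts on ribosomal RNA genes was lower in the median high cell of KO1 (4.91% against 7.92%) and KO3 (4.01% against 4.41%) and higher in WT1 (5.35% against 4.75%) and WT2 (6.54% against 6.24%); its part in these differences was not tested.

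The middle cells, which took no part in the comparison above, gave the same measure again when their upper and lower 50% in each mouse were compared. By the choice itself, all 10 rule genes lay higher in the upper middle cells. Of 12546 genes edgeR called 0 (0%), with 483 at an unadjusted p under 0.05 (3.85%), and DESeq2 called 70 (0.558%). Of the 12021 genes with a value in both comparisons, 6.60% were higher and 6.45% lower in all 4 mice, and 50.9% were lower in the upper middle cells. G2/M genes were lower in 35 of 48 cases (median -0.26), 7 in all mice, among them Top2a (-0.78) and Cdk1 (-0.68). Lipid synthesis genes were higher in 20 of 24 cases (0.24), TCA cycle genes in 15 of 18 (0.14), with Cs (0.37) and Mdh2 (0.19) in 4 of 4 mice, wound genes in 9 of 9 (0.35) and suprabasal genes in 13 of 17 (0.40). Hypoxia genes went the other way, lower in 17 of 26 (-0.37), with Egln3 at -0.94, Bnip3 at -1.18 and Egln1 at -1.06, and Slc16a3 was at -0.30. Of the 653 genes with an unadjusted edgeR p under 0.05 in the first comparison and a value in both, 417 (63.9%) had the same sign in the second, beside 53.1% of all 12021.

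Whether the difference between high and low cells depended on genotype was asked with an interaction term. By edgeR 0 genes were called (0%), with 483 at an unadjusted p under 0.05 (3.84%), and DESeq2 called 83 (0.660%), 35 of them with the more positive difference in the mice labelled Sirt6-/-. The interaction was -0.38 for Krt6a, -1.45 for Krt6b and -1.73 for Krt16 (unadjusted edgeR p = 0.519, 0.0905 and 0.00314), 0.38 for Slc16a3, -0.78 for Pdk1 and 0.52 for Mki67, none past the adjusted threshold. Because each mouse gives 25% of its cells to each class, the share of high cells can differ only with a score pooled over mice. With 95% exact binomial intervals, which cover counting error only, 24.6% of WT1 cells were then high (15.1 to 36.5%). In WT2 the share was 19.3% (11.7 to 29.1%), in KO1 26.0% (16.5 to 37.6%) and in KO3 33.3% (21.1 to 47.5%). With the trends on depth and detected genes kept, the shares were 43.5%, 6.82%, 15.1% and 44.4%. With the trends removed, the mean was 7.70 percentage points higher in the mice labelled Sirt6-/- (exact permutation test over mice, two-sided, p = 0.33, the smallest that 2 against 2 mice allow), and genotype and plate cannot be told apart.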

How the data were processed

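The deposited table gives expected counts per gene and cell, which the authors made with STAR and RSEM on mm10 (GRCm38), per the submitters' processing notes. Versions and strand setting were not given in the sources used here, and 21.52% of the values above 0 are not whole. Counts are reads without molecular identifiers, so all intervals cover counting error only. Of 54247 gene IDs, 54156 matched GENCODE M21. A cell counted as having a gene from 1 expected count on. No doublet caller was run: each cell is a sorted well, and no 2 cells had identical values.

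Counts were summed over the cells of each mouse and class and rounded. edgeR 4.0.16 (TMM, filterByExpr, quasi-likelihood test, two-sided) was fitted with the mouse as block, since high and low cells come from the same animals, and p-values were Benjamini-Hochberg adjusted over all genes tested except the rule genes. DESeq2 1.42.0, limma 3.58.1, other scalings, filters, scores, cell cuts and leaving out each mouse were alternatives. The fits were tested on simulated data. R 4.3.3, Python 3.11.15 and pandas 2.3.3 were used. Promoters are from RefSeq (GRCm38.p6).

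The cells' rule and the gene lists were chosen with earlier results of these data known. Named genes were the rule genes, members of the glycolysis, lactate and hypoxia lists, and up to 2 genes of largest difference per other list; since edgeR called none, the further genes of those lists, and those of no list, were named after their values were seen. Chromosome positions are GENCODE's on GRCm38.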

Additional observations from a re-analysis of the deposited data

Results flagged for a closer look

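In 119 gene and list results over 4 mice, 5 had 1 mouse far from the other 3, and about 1 in 20 is expected to be marked in this way by chance. Bnip3, a mitophagy receptor, had a log2 difference of 6.33 in KO3, where its low cells had 0 CPM, against 0.83 to 1.65 in the other mice. The size of the KO3 value rests on the 1 CPM added to both classes. Notch3 was at 1.92 in WT2 against 0.95 to 1.06 in the others. The spindle motor Kif11 was at -0.30 in KO3 against -5.68 to -4.76, where it was at or near 0 in the high cells. The median of the tumour propagating cell and hair follicle list was -0.26 in WT2 against 0.26 to 0.28, and that of the 7 sirtuins -0.94 in WT2 against 0.18 to 0.37.

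In 4 results both wild type mice lay on one side of 0 and both mice labelled Sirt6-/- on the other. How many such splits are expected by chance was not worked out, so this count is a description only. Sirt6 itself was lower in the high cells of WT1 and WT2 and higher in those of KO1 and KO3 (interaction 1.09; unadjusted edgeR p = 0.256). For the nuclear genes of the respiratory complexes the median difference was 0.10, 0.49, -0.06 and -0.08 in WT1, WT2, KO1 and KO3 (median interaction -0.35). For the 13 protein-coding genes of the mitochondrial genome it was 0.33, 0.02, -0.28 and -0.16 (-0.36), although their summed CPM was lower in the high cells of WT2 too (15429 against 17560). For the pentose phosphate genes it was 0.26, 0.30, -0.01 and -0.00 (-0.25), so near 0 in KO1 and KO3, and their summed CPM was higher in the high cells of all 4 mice. For these 3 lists the difference between genotypes was not tested as a list.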

How the results depend on the processing

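DESeq2 called 248 genes between high and low cells, 83 for the interaction with genotype, 70 between upper and lower middle cells and 10 of the 10 left out rule genes, where edgeR called 0 in each; limma, run for high against low and for the middle cells, called 0 in both, as did all other settings run. Without the mouse block (no pairing) the count stayed 0, with 404 in place of 684 genes at an unadjusted p under 0.05. With the trends on depth and detected genes kept, 12 of 88 named genes changed sign: Pfkfb3 (-1.07), Top2a (0.61), Bub1b (1.06), Ccnb1 (0.86), Cdk1 (0.56), Aurkb (1.23), Plk1 (0.29), Kif11 (0.64), Cenpf (0.19), Prc1 (0.11), Lig1 (0.77) and Rrm1 (1.15); the cause was not tested. Ldhb, at -0.68, was at 0.09 with the pooled score. Other sign changes were of small differences: Hk1 per cell (-0.24, limma), Hk2 without the block (-0.00) and Sirt6 with the wider cell cut (0.11). Over the 4 fits without 1 mouse, Hk1 ran from -0.05 to 0.26, Hk2 from -0.01 to 0.52, Car12 from -0.00 to 0.32 and Sirt6 from -0.42 to 0.04. Leaving out a mouse leaves 1 mouse in its genotype for the interaction, assumed to vary like the others. Sums of 13 to 22 cells per class, with a total of 523999 to 1684464 counts per cell, limit the precision of genes counted in few cells. The pooled share kept its direction in all settings run (4.61 to 13.6 points). Of the 14 plotted lists, 7 kept the sign of their median in all settings run: wound genes (0.69 to 2.10), suprabasal genes (0.78 to 2.43; 1.35 without WT2), lipid synthesis (0.34 to 0.99), hypoxia (0.28 to 0.57), proteasome, actin and TCA cycle genes. The other 7 crossed 0: with the trends kept G2/M (0.44), S phase (1.31), other glycolysis genes (0.21) and ribosomal proteins (-0.22); with limma basal genes (-0.56); other glycolysis genes also with the pooled score (0.10), the wider cell cut (0.02) and without KO3 (0.06); respiratory complexes without WT2 (-0.09); ribosomal proteins also with scaling by totals and without WT2 (both -0.01); and lactate and pyruvate genes with limma, the cycle taken out and the wider cut (-0.07 to -0.00).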
